A study of Mus musculus with 6 samples.

Results

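The genes described here encode 10 secreted factors that start, steer or hold back the growth of blood and lymph vessels: Vegfa, Vegfb, Vegfc, Pgf, Pdgfb, Angpt1, Angpt2, Hgf, Fgf2 and the inhibitor Thbs1. They were chosen by name, and all 10 were found among 22180 measured genes, each through a probe set annotated with that symbol alone. Where a gene had more than 1 such probe set, the brightest over the arrays was used, which applied to Angpt1 only (2 probe sets). Expression was measured on Affymetrix whole-transcript arrays in mammary tumours of 6 mice, 1 array per tumour. All 6 mice were PyMT+, that is, transgenic for the middle T antigen of polyoma virus, an oncogene that gives rise to mammary tumours. Serglycin, a granule proteoglycan encoded by Srgn, was absent in 3 of them (PyMT+ SG-/-) and present in 1 copy in the other 3 (PyMT+ SG+/-). Tumours are numbered 1 to 3 within a genotype, in an order that pairs nothing. The heterozygous mice served as controls, and no mouse with both copies was among the samples. Strain, age, the promoter of the transgene and the deleted part of Srgn are not stated in the sources used here. All levels are the authors' log2 values, and all differences are SG-/- minus SG+/-, so that 1 unit is a doubling.

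Vessel growth is driven by ligands that act on receptors of endothelial cells and of the pericytes around them. Vegfa binds Kdr and Flt1, Pgf and Vegfb bind Flt1, and Vegfc acts on Flt4 and Kdr and is best known for lymphatic vessels. Angpt1 activates the receptor Tek, which Angpt2 can block, while Pdgfb recruits pericytes through Pdgfrb. Hgf signals through Met, and Fgf2 through the Fgfr family. Thrombospondin 1, the product of Thbs1, restrains endothelial cells through Cd36 and Cd47. Low oxygen raises Vegfa through hypoxia-inducible factors, and in PyMT tumours macrophages are a known source of Vegfa. Several of these factors bind the sulphated sugar chains that proteoglycans such as serglycin carry.

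None of the 10 factors passed the test between the genotypes. In limma, adjusted over all genes, 0 of 10 passed a threshold of 0.05, as did 0% of all 22180 genes, and the smallest adjusted p of any gene was 0.467. At an unadjusted limma p of 0.05 the count was 1 of 10 (Vegfc), against 2.11% of all genes. In 2 of 10 the genotypes did not overlap (Vegfc, higher in SG-/-, and Thbs1, lower), against 6.03% of all genes. In 6 of 10 the difference was above 0, against 46.3% of all genes. Over the 10 factors the median difference was 0.06, and over all genes it was -0.01.

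Srgn was at 5.07, 5.04 and 4.89 in SG-/- tumours 1 to 3 and at 6.76, 6.43 and 6.35 in SG+/- tumours 1 to 3, so the direction of the genotypes follows the labels. The difference was -1.52, standard error 0.15 (limma adjusted p = 0.467; exact two-sided permutation p = 0.1, the smallest that 3 against 3 tumours allow). The luminal markers Krt8, Krt18 and Epcam lay between 11.85 and 12.32 in all 6 tumours. Not all luminal genes were as steady. Of 9 listed, 6 were higher and 3 lower in SG-/-, with a median of 0.02, and 1 was without overlap against 6.03% of all genes. SG-/- tumour 3 lay at the end of the range of the arrays. Its interquartile range was the narrowest, 2.56 against 2.85 to 3.15 in the others. As a measure of background, 1373 genes of odour and pheromone receptors were used. Their mean was highest there, 5.87 against 4.58 to 5.63 in the others. Genes of the salivary gland varied widely and not together. The saliva protein gene Bpifa2 was at 13.54 and 13.64 in SG-/- tumours 1 and 3, at 7.26 in SG-/- tumour 2 and at 6.18, 5.98 and 6.47 in the SG+/- tumours. Of 15 salivary genes listed, 14 were measured, all 14 above the dim level of 6.09 (the 40th percentile of probe set means), and their mean level ran from 7.59 to 9.12 in SG-/- and from 7.16 to 7.72 in SG+/- tumours, with 10 of 14 higher and 4 lower in SG-/-. Klk1, at 10.40, and Prol1, at 10.86, were highest in SG-/- tumour 2, and Dcpp2, at 10.66, and Dcpp3, at 12.20, in SG+/- tumour 2. Their part in the results was not tested. In bulk tissue, fewer cells of a type and less RNA per cell cannot be told apart.

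The starts of 3 VEGF family genes are shown because they had the largest differences of the 4 VEGF family members among the 10 factors. Each window runs from 250 bases before to 50 bases after a start of the gene in GRCm38.p6, the most upstream among the windows searched. For Pgf the RefSeq gene begins further upstream, at chr12:85177785, so its window belongs to a start inside the gene. Vegfa is on the minus strand at chr17:46032328-46032627, Pgf on the minus strand at chr12:85177264-85177563 and Vegfc on the plus strand at chr8:54077282-54077581. Capitals mark the GC box GGGCGG or its reverse complement.
Vegfa: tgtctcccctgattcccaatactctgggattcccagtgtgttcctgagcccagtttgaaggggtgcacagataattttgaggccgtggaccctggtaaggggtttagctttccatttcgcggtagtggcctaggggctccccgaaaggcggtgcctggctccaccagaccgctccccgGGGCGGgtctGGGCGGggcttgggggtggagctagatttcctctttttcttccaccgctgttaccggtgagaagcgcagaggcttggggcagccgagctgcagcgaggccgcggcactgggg
Pgf: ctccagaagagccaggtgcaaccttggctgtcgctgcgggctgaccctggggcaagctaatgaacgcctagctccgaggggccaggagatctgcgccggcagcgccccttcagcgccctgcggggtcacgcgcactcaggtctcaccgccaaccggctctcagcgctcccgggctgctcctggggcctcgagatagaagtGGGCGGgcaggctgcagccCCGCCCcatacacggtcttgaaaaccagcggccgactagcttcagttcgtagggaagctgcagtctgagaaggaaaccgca
Vegfc: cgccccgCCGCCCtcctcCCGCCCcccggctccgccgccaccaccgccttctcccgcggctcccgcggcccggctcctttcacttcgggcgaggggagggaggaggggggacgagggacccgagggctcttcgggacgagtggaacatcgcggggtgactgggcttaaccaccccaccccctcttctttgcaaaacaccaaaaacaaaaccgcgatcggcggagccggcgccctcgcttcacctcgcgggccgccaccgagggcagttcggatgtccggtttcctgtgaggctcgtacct
Each of the 3 windows holds 2 GC boxes, and 35.7% of all 32851 windows searched hold at least 1. In Vegfa they lie together, with first bases at -72 and -62 from the start, in Pgf at -50 and -31, and in Vegfc far upstream at -243 and -232. The hypoxia core, ACGTG or GCGTG on either strand, occurs once in the Pgf window at -124 and in neither of the other 2, against 43.8% of all windows. The windows were rich in G and C, with 62.0% in Vegfa, 66.0% in Pgf and 70.3% in Vegfc against a median of 52.7%. These matches describe letters only and say nothing of binding.

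Vegfa, the main growth factor of blood vessels, was at 9.78, 10.65 and 9.71 in SG-/- tumours 1 to 3 and at 10.64, 10.17 and 10.41 in SG+/- tumours 1 to 3. SG-/- tumours 1 and 3 lay below all SG+/- tumours, while SG-/- tumour 2 was the highest of all 6, so the genotypes overlapped. The means were 10.04 ± 0.52 and 10.41 ± 0.23 (SD, n = 3 each), a difference of -0.36 (standard error 0.27) whose 95% confidence interval ran from -1.01 to 0.28 (limma adjusted p = 1.00). Without SG-/- tumour 2 the difference was -0.66, and without SG-/- tumour 3 it was -0.19.

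Pgf, the placental growth factor that binds the receptor Flt1, had the largest difference of the 10. Its levels were 7.42, 7.19 and 7.04 in SG-/- tumours 1 to 3 against 7.99, 7.12 and 8.54 in SG+/- tumours 1 to 3. The SG-/- tumours lay close together, and the spread was in the controls, where SG+/- tumour 2 lay within the SG-/- range and tumour 3 stood far above it. The difference was -0.67, or 1.59-fold lower, (standard error 0.34), its interval reaching from -1.48 to 0.14 (limma adjusted p = 1.00). It was -0.34 without SG+/- tumour 3 and -1.05 without SG+/- tumour 2. The sign was the same in all 14 alternatives, and the size depended on these 2 control tumours.

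Vegfc, the ligand of lymphatic growth, pointed the other way. It was at 7.66, 7.77 and 7.75 in SG-/- tumours 1 to 3 and at 7.05, 7.48 and 7.49 in SG+/- tumours 1 to 3, so each SG-/- tumour lay above each SG+/- tumour. The difference was 0.39, or 1.31-fold, (standard error 0.16), its interval reaching from 0.01 to 0.76. It had an unadjusted limma p of 0.044 (adjusted p = 1.00), and the exact permutation p was 0.1. Without SG+/- tumour 1, the lowest tumour, the difference was 0.24, and over all 14 alternatives it ran from 0.24 to 0.47. Fibroblast and macrophage genes were also higher in SG-/- tumours (medians of 0.58 and 0.38), and their part in the Vegfc difference was not tested.

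Vegfb, which also binds Flt1, was the steadiest of the family. Its levels were 9.21, 9.22 and 9.18 in SG-/- tumours 1 to 3 and 9.03, 9.12 and 9.29 in SG+/- tumours 1 to 3. The SG-/- values lay inside the SG+/- range. The difference was 0.05 with an interval from -0.24 to 0.35, so a difference of more than 0.35 in either direction lies outside it.

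**Figure D1:**
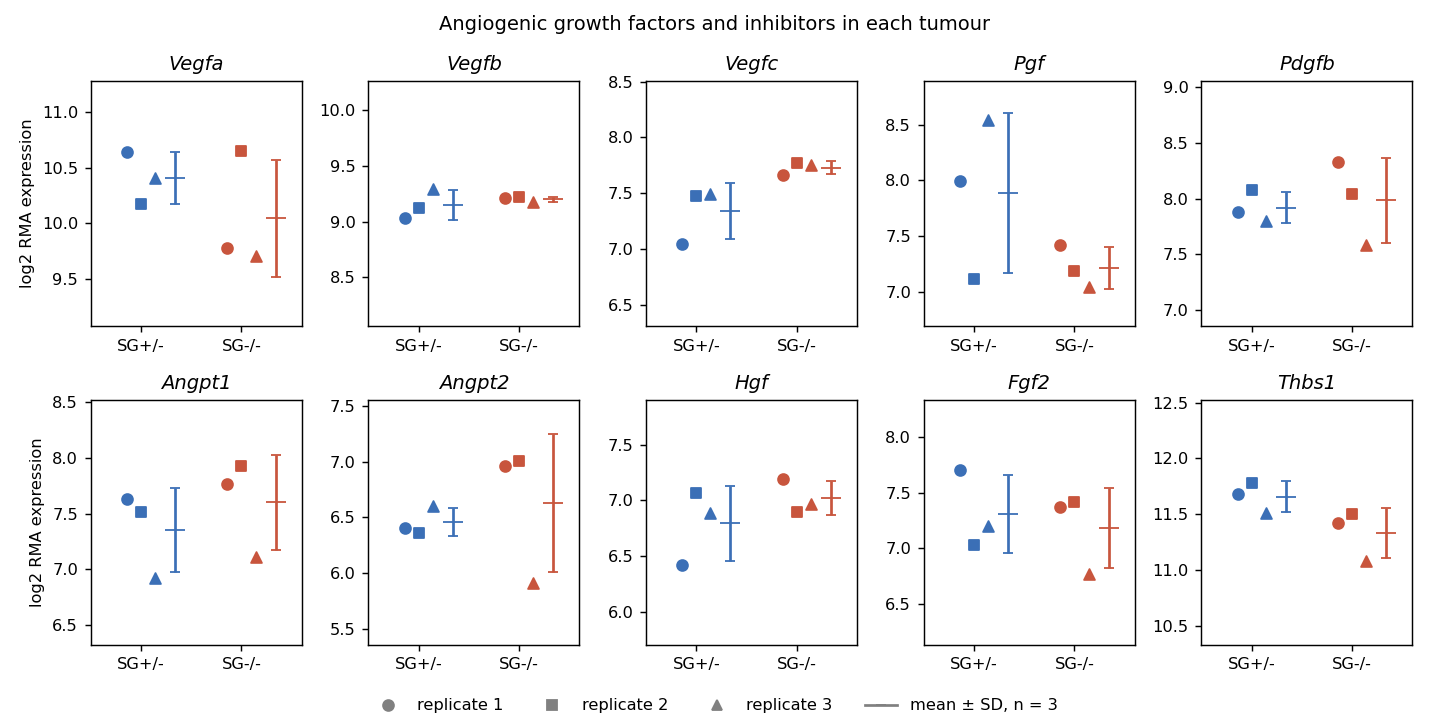
Each panel plots the log2 expression of 1 gene in the 3 SG+/- (blue) and 3 SG-/- (red) tumours, with tumour numbers as symbols and the mean ± SD beside them, all panels spanning the same height. Vegfc in SG-/- tumours (7.66 to 7.77) lies above all SG+/- tumours (up to 7.49), Thbs1 lies just below, and Vegfa shows 1 SG-/- tumour at 10.65 beside others at 9.78 and 9.71.

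Both angiopoietins were higher in SG-/- tumours 1 and 2 than in every SG+/- tumour and lower in SG-/- tumour 3 than in the other SG-/- tumours. Angpt1, which stabilises vessels, was at 7.76, 7.92 and 7.11 in SG-/- tumours 1 to 3 and at 7.63, 7.51 and 6.92 in SG+/- tumours 1 to 3. Its difference was 0.24 (standard error 0.27), its interval reaching from -0.40 to 0.89 (limma adjusted p = 1.00). It was 0.03 without SG+/- tumour 3, 0.49 without SG-/- tumour 3 and 0.67 with array weights. The second Angpt1 probe set had a difference of -0.06, so the probe sets disagreed in sign. Angpt2, a product of sprouting endothelium, was at 6.96, 7.004 and 5.91 in SG-/- tumours 1 to 3 and at 6.41, 6.36 and 6.598 in SG+/- tumours 1 to 3. The SG-/- tumours lay on both sides of the tight SG+/- group, and the value of tumour 3 was under the dim level. The Angpt2 difference was 0.17 with an interval from -0.53 to 0.87, 0.53 without SG-/- tumour 3 and -0.02 without SG-/- tumour 2.

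Pdgfb, which draws pericytes to new vessels, was at 8.33, 8.04 and 7.58 in SG-/- tumours 1 to 3 and at 7.89, 8.08 and 7.80 in SG+/- tumours 1 to 3. The SG-/- tumours spanned the whole SG+/- range and went past it at both ends. The difference was 0.06 with an interval from -0.43 to 0.56 (limma adjusted p = 1.00). It was 0.27 without SG-/- tumour 3 and -0.11 without SG-/- tumour 1.

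Hgf, a fibroblast product that moves epithelial and endothelial cells through Met, was at 7.19, 6.90 and 6.97 in SG-/- tumours 1 to 3 and at 6.42, 7.07 and 6.89 in SG+/- tumours 1 to 3. SG+/- tumour 1 was low, and the other 5 tumours lay between 6.89 and 7.19. The difference was 0.23 with an interval from -0.23 to 0.68 (limma adjusted p = 1.00), and it was 0.04 without SG+/- tumour 1. Fgf2, a growth factor stored in the matrix, was at 7.37, 7.41 and 6.77 in SG-/- tumours 1 to 3 and at 7.70, 7.03 and 7.20 in SG+/- tumours 1 to 3. The genotypes overlapped, with SG-/- tumour 3 lowest and SG+/- tumour 1 highest. The Fgf2 difference was -0.12 with an interval from -0.70 to 0.45. Its sign turned without SG-/- tumour 3 (0.08) and without SG+/- tumour 1 (0.07).

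Thbs1, the inhibitor among the 10, was at 11.42, 11.50 and 11.08 in SG-/- tumours 1 to 3 and at 11.68, 11.78 and 11.51 in SG+/- tumours 1 to 3. Each SG-/- tumour lay below each SG+/- tumour, though SG-/- tumour 2 and SG+/- tumour 3 nearly touched. The difference was -0.32, or 1.25-fold lower, (standard error 0.16), its interval reaching from -0.70 to 0.05 (limma adjusted p = 1.00; exact permutation p = 0.1). It was -0.20 without SG-/- tumour 3. Because the genotypes did not overlap, leaving out or weighting tumours could not turn its sign, so the unchanged sign in the 14 alternatives adds little. Platelets store thrombospondin 1, and their part in the Thbs1 difference was not tested. Of 11 measured platelet genes, 9 of them above the dim level, 5 were higher and 6 lower in SG-/- tumours. Their mean level ran from 6.41 to 6.75 in SG-/- and from 6.48 to 6.60 in SG+/- tumours.

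**Figure D2:**
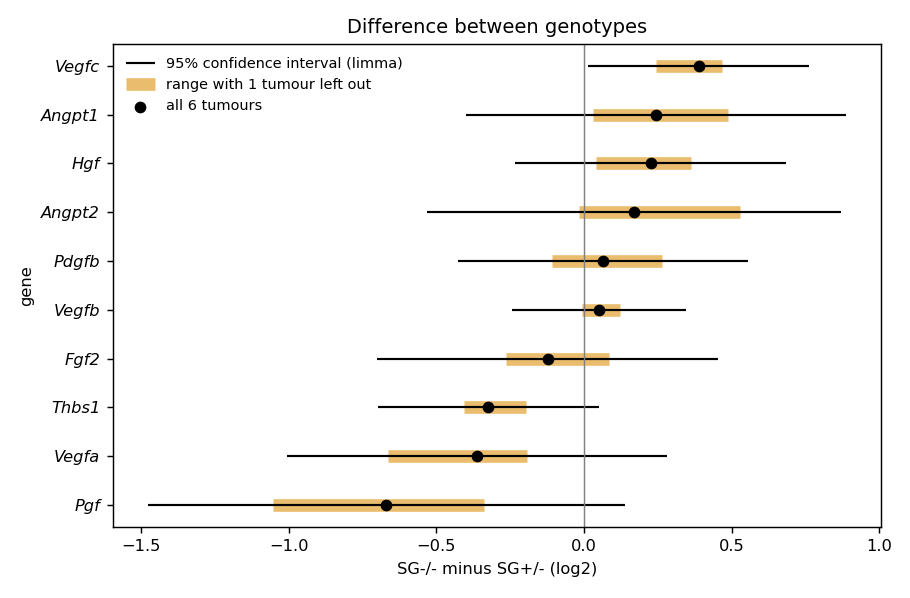
Points give SG-/- minus SG+/- on the log2 scale for each gene over all 6 tumours, black lines the 95% confidence interval from limma and orange bars the range when 1 tumour is left out. Only the Vegfc interval (0.01 to 0.76) lies to 1 side of 0, before any adjustment for the number of genes, and the Pgf bar runs from -1.05 to -0.34.

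Across tumours, SG-/- tumour 3 had the lowest level of all 6 in 6 of the 10 factors, namely Vegfa, Pgf, Pdgfb, Angpt2, Fgf2 and Thbs1. Among the 14861 genes above the dim level it was the lowest in 48.7%. SG-/- tumour 2 had the highest level in 4 of the 10, against 12.9% of the genes above the dim level. The factors spanned a median of 0.85 between the highest and the lowest tumour, against 0.53 for genes above the dim level. Applying quantile normalization again moved Angpt2 from 0.17 to 0.08 and Fgf2 from -0.12 to -0.19 and left the sign of all 10 differences as it was.

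**Figure D3:**
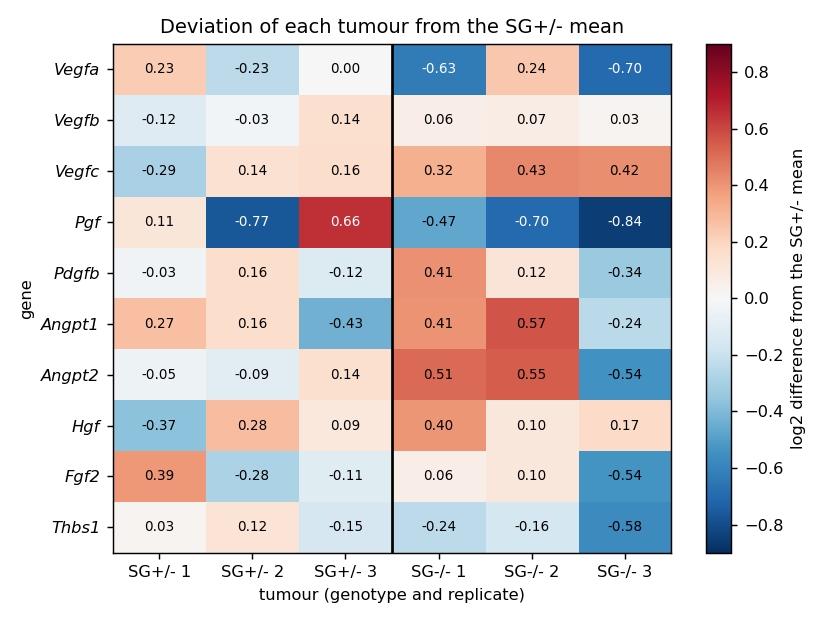
Rows are the 10 genes and columns the 6 tumours, with colour and printed value giving the log2 difference from the SG+/- mean. The column of SG-/- tumour 3 is negative in 7 genes and reaches -0.84 in Pgf, whereas SG-/- tumours 1 and 2 are positive for both angiopoietins (0.41 to 0.57).

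The receptors of these ligands leaned to the higher side in SG-/- tumours, and 0 of 16 passed. Of the VEGF receptors and co-receptors 4 of 5 were higher, with a median difference of 0.22, and 0 of 5 had non-overlapping values against 6.03% of all genes. Kdr, the main Vegfa receptor, was at 8.33, 8.47 and 7.96 in SG-/- tumours 1 to 3 and at 7.97, 7.80 and 8.05 in SG+/- tumours 1 to 3. SG-/- tumour 3 lay inside the SG+/- range and the other SG-/- tumours above it. The Kdr difference was 0.31 (standard error 0.17) and that of Flt1 0.22 (standard error 0.15), while Flt4, the Vegfc receptor of lymphatic vessels, differed by -0.06. Among the receptors of the other factors 10 of 11 were higher, with a median of 0.19, and in 2 of 11, Tek and Cd36, the genotypes did not overlap; over all genes 46.3% were higher and 6.03% did not overlap.

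Cd36, through which thrombospondin 1 acts on endothelium, was at 7.49, 7.69 and 7.24 in SG-/- tumours 1 to 3 and at 6.81, 6.53 and 7.001 in SG+/- tumours 1 to 3. Its difference of 0.70 had a standard error of 0.18 and did not pass (limma adjusted p = 1.00). Cd36 is also a gene of adipocytes and macrophages, whose lists were higher too in SG-/- tumours (7 of 7 and 10 of 10 members), and their part was not tested. Tek, the angiopoietin receptor, differed by 0.43 and Met by 0.26. For Tek the lowest SG-/- tumour, at 7.11, was just above the highest SG+/- tumour, at 7.07. The VEGF receptor median was 0.06 without SG-/- tumour 1 and 0.45 without SG-/- tumour 3.

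Of the other angiogenic ligands 10 of 14 had higher means in SG-/-, with a median of 0.22 and 0 past the threshold. The median was 0.11 without SG-/- tumour 1 and 0.37 with array weights. Vegfd, a relative of Vegfc that acts on the same lymphatic receptor, was at 7.18, 6.02 and 6.30 in SG-/- tumours 1 to 3 and at 5.62, 5.56 and 5.81 in SG+/- tumours 1 to 3. Its values did not overlap, and all SG+/- values and that of SG-/- tumour 2 were under the dim level. The difference was 0.84 (standard error 0.29; limma adjusted p = 1.00). Egfl7, an endothelial secreted protein, differed by 0.40. On the lower side, the hypoxia-induced vessel factors Angptl4 and Adm differed by -0.45 and -0.36, with overlapping genotypes.

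Most other inhibitors did not share the sign of Thbs1. Of 16 measured, 12 had higher and 4 lower means in SG-/-, against 46.3% of all genes higher. The median was 0.23, with 0 past the threshold. Adamts1, a protease that can bind and hold Vegfa, was at 10.10, 10.05 and 9.38 in SG-/- tumours 1 to 3 and at 9.02, 9.31 and 8.73 in SG+/- tumours 1 to 3. These values did not overlap, and the difference was 0.83 (standard error 0.24; limma adjusted p = 1.00). Timp3, which can block Vegfa from Kdr, differed by 0.90 (standard error 0.32), with SG-/- tumour 3 at 9.56 inside the SG+/- range. Thbs2, the closest relative of Thbs1, differed by 0.29, and its level of 10.81 in SG-/- tumour 1 was far above the other 5 tumours. The median of this list was 0.06 without SG-/- tumour 1 and 0.41 without SG-/- tumour 3. By tumour the list stood in median at 0.45, 0.08 and 0.05 in SG-/- tumours 1 to 3. Fibroblast genes stood at 1.21, 0.18 and 0.44 in the same tumours, and their part in the inhibitor differences was not tested.

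Of the genes listed as downstream of Vegfa 0 passed the adjusted threshold, as did 0% of all 22180 genes. Of 13 genes that VEGF induces or that mark sprouting tip cells, 8 were higher against 46.3% of all genes, with a median of 0.06, and 0 were non-overlapping against 6.03%. Dll4, the Notch ligand of tip cells, differed by 0.10, Apln by 0.42 and Rcan1, a calcineurin regulator, by -0.44. For Hgf, whose precursor must be cleaved, 4 of 8 genes of the activating proteases and their inhibitors were higher, with a median of 0.03. The activator gene Hgfac differed by 0.11, and the plasminogen activators Plau and Plat by 0.42 and 0.56.

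Genes induced by low oxygen were mostly lower in SG-/- tumours, as Vegfa was. Of 17 measured, 3 were higher and 14 lower, against 46.3% of all genes higher, with a median of -0.18 and 0 past the threshold. Relative to the SG+/- mean, the list stood in median at -0.11, 0.03 and -0.42 in SG-/- tumours 1 to 3. SG-/- tumour 2, the tumour highest in Vegfa (10.65 against 10.64 in SG+/- tumour 1), was the SG-/- tumour highest in this list. SG-/- tumour 3 was the lowest of all 6 in both, as it was in 48.7% of the genes above the dim level. Kdm3a, a hypoxia-induced demethylase, had a difference of -0.41 (standard error 0.16). It was the only 1 of the 17 without overlap, against 6.03% of all genes. Pfkfb3, a glycolytic regulator, differed by -0.52 and Car9, a carbonic anhydrase, by 0.03. The list median was -0.07 without SG-/- tumour 3 and turned to 0.03 with array weights. The gene of the oxygen-regulated factor itself, Hif1a, differed by -0.05 and Epas1 by 0.12, and 2 of 6 genes of that group were higher, among them Hif3a (0.13), while the oxygen sensor Egln2 differed by -0.10. The Vegfa difference and this list share the same tumours, so they are not independent of each other.

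Markers of the cells that bear the receptors were compared in the same way. Of 17 endothelial genes 16 had higher means in SG-/-, with a median of 0.32, 4 at an unadjusted limma p of 0.05 against 2.11% of all genes, and 6 without overlap against 6.03%, but 0 passed the adjusted threshold. Cdh5, the cadherin of endothelial junctions, differed by 0.51, Clec14a by 0.45 and Pecam1 by 0.35. By tumour, the endothelial list stood in median at 0.50, 0.31 and 0.08 in SG-/- tumours 1 to 3 and reached 0.10 in the SG+/- tumours. Of 5 lymphatic genes 4 were higher (median 0.49), led by Reln at 0.74 and Pdpn at 0.51, while Prox1, the regulator of lymphatic identity, differed by -0.04. Without SG-/- tumour 1 the endothelial median was 0.20 and the lymphatic one 0.32, and array weights gave 0.17 for the latter. By tumour, the lymphatic median was 0.64, 0.12 and 0.09 in SG-/- tumours 1 to 3. Pericyte and smooth muscle genes stood at a median of 0.06, or -0.02 when normalized again, with 7 of 11 higher. The pericyte marker Rgs5 differed by 0.23, Mcam by -0.24 and Kcnj8 by -0.21.

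Possible sources of the factors also varied. Macrophage genes were higher in 10 of 10 (median 0.38), with Adgre1 at 0.53 and Fcgr1 at 0.65, and their mean level ran from 8.37 to 9.26 in SG-/- and from 8.35 to 8.41 in SG+/- tumours. Fibroblast genes were higher in 9 of 9, with Fap at 0.59, Postn at 0.71 and Col1a1 at 0.38, and their mean level ran from 9.29 to 10.29 in SG-/- and from 8.84 to 9.32 in SG+/- tumours. Without SG-/- tumour 1 the fibroblast median was 0.22 and the macrophage median 0.16. Of the platelet genes, Pf4 was 0.58 higher and Selp 0.67 higher, both without overlap. Itga2b differed by -0.31, also without overlap, and 6.03% of all genes did not overlap. Mast cells, which store serglycin, left little signal, as 1 of 8 marker genes was above the dim level and that gene, Kit, is also made by mammary epithelium. The mast cell gene Cpa3 was at a mean of 6.13 in SG-/- and 5.44 in SG+/- tumours, a difference of 0.69, and the list had a median of 0.20. Cma1, a mast cell chymase, differed by 0.18 and Hdc, the histamine enzyme, by 0.28.

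**Figure D4:**
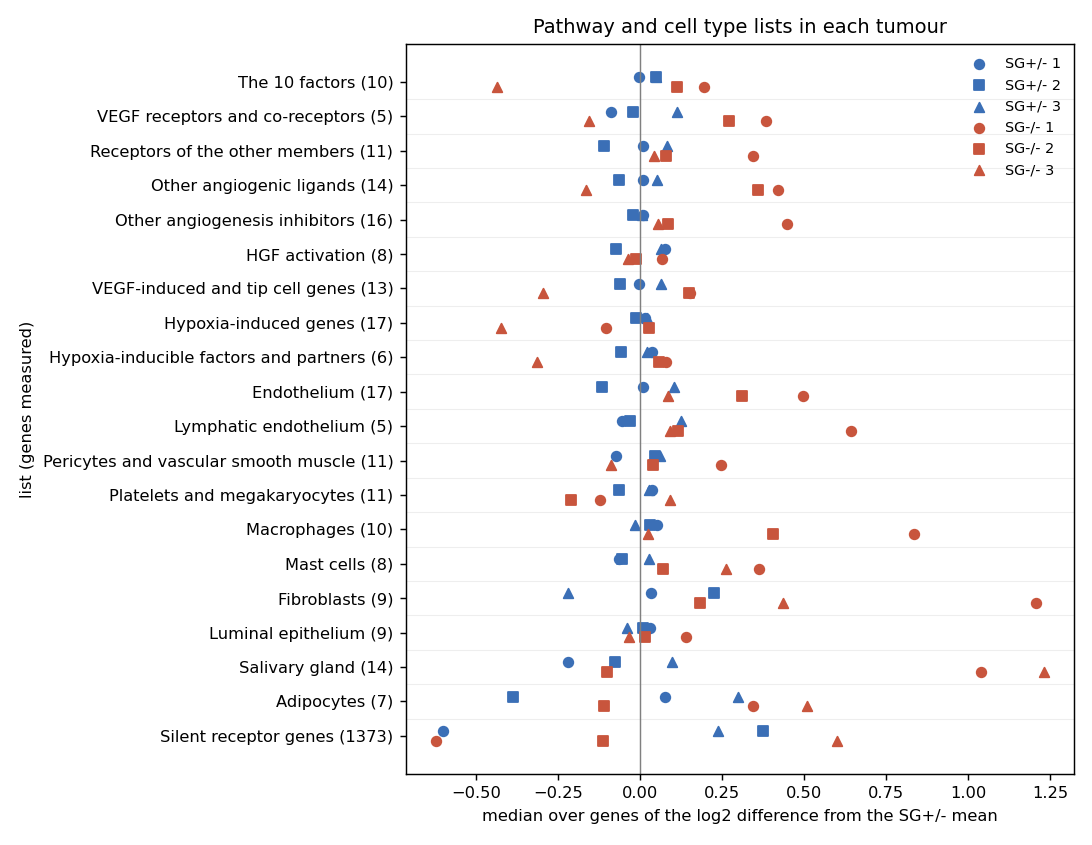
For each list, with the number of genes measured in brackets, points give the median over genes of the log2 difference from the SG+/- mean in each SG+/- (blue) and SG-/- (red) tumour. For the 10 factors SG-/- tumour 3 lies at -0.44 and the other SG-/- tumours at 0.19 and 0.11, and the salivary gland list is at 1.04 and 1.23 in SG-/- tumours 1 and 3.

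Genes with the most similar profiles were sought for 4 factors by the root mean square difference between profiles over the 6 arrays, each centred on its own mean. For Vegfa these were Adgrg3 at 0.13 and Tgfbr3 at 0.15, and 1 gene lay within 0.15. For Angpt2 they were Fam114a1 at 0.08 and Ptgfrn at 0.09, with 56 genes within 0.15, and for Hgf P2ry14 and Cstdc3, both at 0.07, with 119. For Thbs1 they were Cpox and Vsir, both at 0.03, and 2042 genes lay within 0.15. The distance is not scaled, and a profile of small spread has more neighbours: the SD over the 6 arrays was 0.22 for Thbs1 and 0.38 for Vegfa.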

How the data were processed

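RNA from 6 snap-frozen tumours was hybridised to 1 array each, and the authors deposited log2 values per probe set made by robust multi-array average (RMA), which includes quantile normalization, per the series text and the values. Affymetrix Expression Console and limma are listed beside RMA in the submitters' processing notes, without versions. The values cover 33793 probe sets, of which 23521 had 1 gene symbol in the platform annotation, 1814 several and 8458 none. The array count limits the precision.

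Genotypes were compared as independent groups with lmFit and eBayes in limma 3.58.1 (R 4.3.3), two-sided, adjusted by Benjamini-Hochberg over 22180 genes, with single values also by an exact permutation test. The labels number the mice separately. Gene lists were described by counts and medians, without a set test. The fit was tested on simulated data with equal noise on all arrays and changes larger than those of the 10 factors. That test therefore does not cover smaller differences or uneven arrays. The 10 factors, the lists and the settings were chosen with earlier results of these data known. Text names the 10 factors, Srgn, each list's first gene and its 2 genes of smallest limma p, and the nearest profiles of 4 factors. Other genes were named after their values were seen.

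Alternatives were to leave out dim genes or each tumour in turn, normalize again, centre on brighter genes, use eBayes with trend and robust settings, array weights, the mean of a gene's probe sets, or the mean of 1373 silent receptor genes as a covariate. SG-/- tumour 2 alone against SG+/- was added after the data were seen. Promoter windows came from RefSeq (GRCm38.p6), and plots from matplotlib 3.10.9 under Python 3.11.15.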

Additional observations from a re-analysis of the deposited data

How the results depend on the processing

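Under all 14 alternatives 0 of the 10 factors passed limma's adjusted threshold of 0.05. Their smallest adjusted p was 0.316, for Angpt1 with array weights. The count over all genes was 0 except for 1 gene with the silent receptor mean as a covariate and 1 without SG-/- tumour 2, a range of 0 to 1 when single tumours were left out. With that covariate Srgn passed at a difference of -1.53 (limma adjusted p = 0.0446), and leaving out dim genes removes Srgn. The median difference of the 10 factors ran from -0.05 without SG-/- tumour 1 to 0.17 without SG-/- tumour 3. Signs turned in 5 factors, none of them past the threshold in either setting. Vegfa was 0.073 with array weights and 0.24 with SG-/- tumour 2 alone, a sign fixed by choosing the tumour highest in Vegfa, and from -0.66 to -0.19 when single tumours were left out. Fgf2 was 0.12 with array weights and 0.10 with SG-/- tumour 2 alone, and ran from -0.26 to 0.083 with single tumours left out. The ranges with single tumours left out were -0.0066 to 0.12 for Vegfb, -0.11 to 0.27 for Pdgfb and -0.019 to 0.53 for Angpt2. The cause was not tested. Array weights, estimated from the same values, gave SG-/- tumour 2 4.95 and SG-/- tumour 3 0.20. With them 2569 genes had an unadjusted p of 0.05 against 469, and the count was 1038 with the covariate and 1200 without SG-/- tumour 3. No paired analysis was possible because the labels give the genotypes no shared replicate numbers. With 3 arrays per genotype the intervals of Pgf and Vegfa still hold differences of -1.48 and -1.01.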

Other observations

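Luminal epithelial genes, the tumour cells' own markers, were nearly level between the genotypes, with 6 of 9 higher in SG-/- tumours and a median of 0.02. Krt8 differed by 0.13, Krt19, another keratin of luminal cells, by 0.89 and Cldn7, a tight junction protein, by -0.26, and 0 of 9 passed in limma after adjustment over all genes. Adipocyte genes were higher in 7 of 7 (median 0.32), with Fabp4, a fatty acid carrier, at 0.99, Cidec at 0.36 and Adipoq at 0.21. By tumour the list stood in median at 0.34, -0.11 and 0.51 in SG-/- tumours 1 to 3. In SG+/- tumours 1 to 3 it stood at 0.07, -0.39 and 0.30, so the genotypes overlapped. Without SG+/- tumour 2 the adipocyte median was 0.15. Klk1, a tissue kallikrein of the salivary list, was at 9.02, 10.40 and 6.74 in SG-/- tumours 1 to 3, so SG-/- tumour 2, which was low in Bpifa2, was the highest in Klk1.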
